A study of Mus musculus with 2 samples.

Results

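Natural killer (NK) cells read the surface of other cells through a set of inherited receptors, and 10 of the 32285 genes counted in leukocytes of mouse colon tumors encode such receptors and are described here. They were chosen by name: Ncr1, Klrb1c, Klre1, Klrd1, Klrk1, Klra1, Klra4, Klra7, Klra8 and Klra9. All 10 were present in the gene list and were counted over barcodes with at least 500 unique molecular identifiers (UMIs, counts of single captured RNA molecules) and 300 genes, of which there were 5671 under the normal and 5944 under the ketogenic diet. MC38, a mouse colon adenocarcinoma line, was injected subcutaneously in matrigel into female C57BL/6J mice that were 6 to 8 weeks old, for which the labels name no engineered allele. The normal diet group stayed on that diet, and the ketogenic diet group received a ketogenic diet from day 4 after injection. At day 14 leukocytes carrying CD45 were enriched with magnetic beads from dissociated tumors after dead cells had been removed. Each diet is 1 library made from the pooled cells of 5 mice, and barcodes carry no mark of the mouse.

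NK cells weigh activating against inhibitory receptors and kill when activation prevails. The Ly49 receptors, encoded by the Klra genes, mostly bind classical MHC class I molecules. Inhibitory Ly49 receptors stop killing through phosphatases, whereas activating ones have no signaling part of their own and borrow the adaptor Tyrobp (DAP12). Each NK cell switches on only some of its Ly49 genes, so that the pool of cells carries many combinations. Klrd1 (CD94) pairs with NKG2 proteins and reads a non-classical MHC class I molecule, Klrk1 (NKG2D) reads stress-induced ligands, Ncr1 (NKp46) is an activating receptor used as a marker of NK cells, and Klrb1c encodes the antigen by which NK cells of C57BL/6 mice are usually recognized.

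Cells were sorted into classes by genes outside the 10 receptors. An NK barcode had at most 1 UMI of Cd3d, Cd3e, Cd3g and Trac and at least 5 UMIs, making up at least 1000 CPM (UMIs scaled to a total of 1000000), from at least 3 of the genes Nkg7, Prf1, Gzma, Gzmb, Gzmc, Gzmf and Xcl1. It was called Gzma-dominant or Gzmc-dominant where 1 of these granzymes had at least 3 UMIs and at least 3 times the UMIs of the other. For the normal diet and the ketogenic diet in turn there were 290 and 689 Gzma-dominant NK barcodes, 467 and 709 Gzmc-dominant NK barcodes, 170 and 261 other NK barcodes with neither granzyme dominant, 302 and 373 CD8 T barcodes (at least 3 T cell receptor UMIs and 2 of Cd8a or Cd8b1), 19 and 30 CD4 T barcodes, 206 and 354 other T barcodes and 2679 and 1867 myeloid barcodes. Gzma-dominant barcodes were shallow, with median depths of 1880 and 1867 UMIs against 6460 and 6040 UMIs in Gzmc-dominant ones. Of 8 NK marker genes outside the gates, only Ncam1 was at 0 UMIs in both subsets of both libraries, and the T cell gene Cd5 was at 0 in Gzma-dominant barcodes of both. Another T cell gene, Trbc1, stood at 583 and 433 CPM in Gzma-dominant, 516 and 453 CPM in Gzmc-dominant and 677 and 851 CPM in CD8 T barcodes. The NK genes Serpinb9b and Il2rb separated Gzmc-dominant from CD8 T barcodes little. Serpinb9b stood at 83.4 and 111 against 83.6 and 92.6 CPM, and Il2rb at 839 and 633 against 769 and 584 CPM. The 8 genes summed to between 6713 and 9542 CPM in the NK subsets and to 2341 and 2622 CPM in CD8 T barcodes, while 7 T cell genes summed to 805 to 1035 and to 2968 and 3048 CPM. The sum of the NK list is not specific to NK cells, since it reached 8488 and 9308 CPM in myeloid barcodes, which also use Tyrobp and Fcer1g. Only 7 barcodes were shared between the libraries, and none of them was an NK or T barcode in both. Barcodes that mixed lineages were left out, and those that fell in no class after the mitochondrial limit, 1475 and 1590, were deep, with medians of 8635 and 8798.5 UMIs. NK barcodes held part of each receptor's UMIs, from 32.5% (Klrk1) to 58.2% (Klra9) with the normal diet and from 37.1% (Klrk1) to 59.96% (Klra8) with the ketogenic diet. The rest lay in T and myeloid barcodes and in those of no class, which for Klrk1 held 4279 of 10251 UMIs in the normal library.

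Most of the receptors were lower per UMI in Gzmc-dominant than in Gzma-dominant NK barcodes. Klrb1c, Klra4, Klra8, Klra9, Klrk1, Klre1 and Klra7 fell, Klrd1 rose, and Klra1 and Ncr1 did not pass the test. Counts of each class were summed per library and compared with edgeR's quasi-likelihood test with the library as a block, and p-values were adjusted by the Benjamini-Hochberg method over 9225 genes. The 7 of 10 receptors called lower stand beside 14.2% of all genes called lower, the 1 called higher beside 15% called higher, and 29.2% of all genes were called in either direction. The median log2 difference was −0.49 over the 10 receptors and 0.0056 over all genes tested. Values in CPM are given below for the normal and then the ketogenic library, with 95% counting intervals that cover counting error only. On that scale the median gene with at least 200 counts differed by −0.13 and −0.10 (log2) between the subsets, a shift that edgeR's scaling removes. The subsets differed in more than the receptors: 3 proliferation genes (Mki67, Top2a and Stmn1) summed to 175 and 207 CPM in Gzma-dominant and to 691 and 726 CPM in Gzmc-dominant barcodes, and 3 hemoglobin genes to 542 CPM in the Gzmc-dominant barcodes of the normal library against at most 7.12 CPM in the other sums of these subsets. The 8 receptors called kept their calls and directions in barcodes with at least 2000 UMIs, and their directions without the normal library. The part of proliferation in the differences was not tested.

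**Figure D1:**
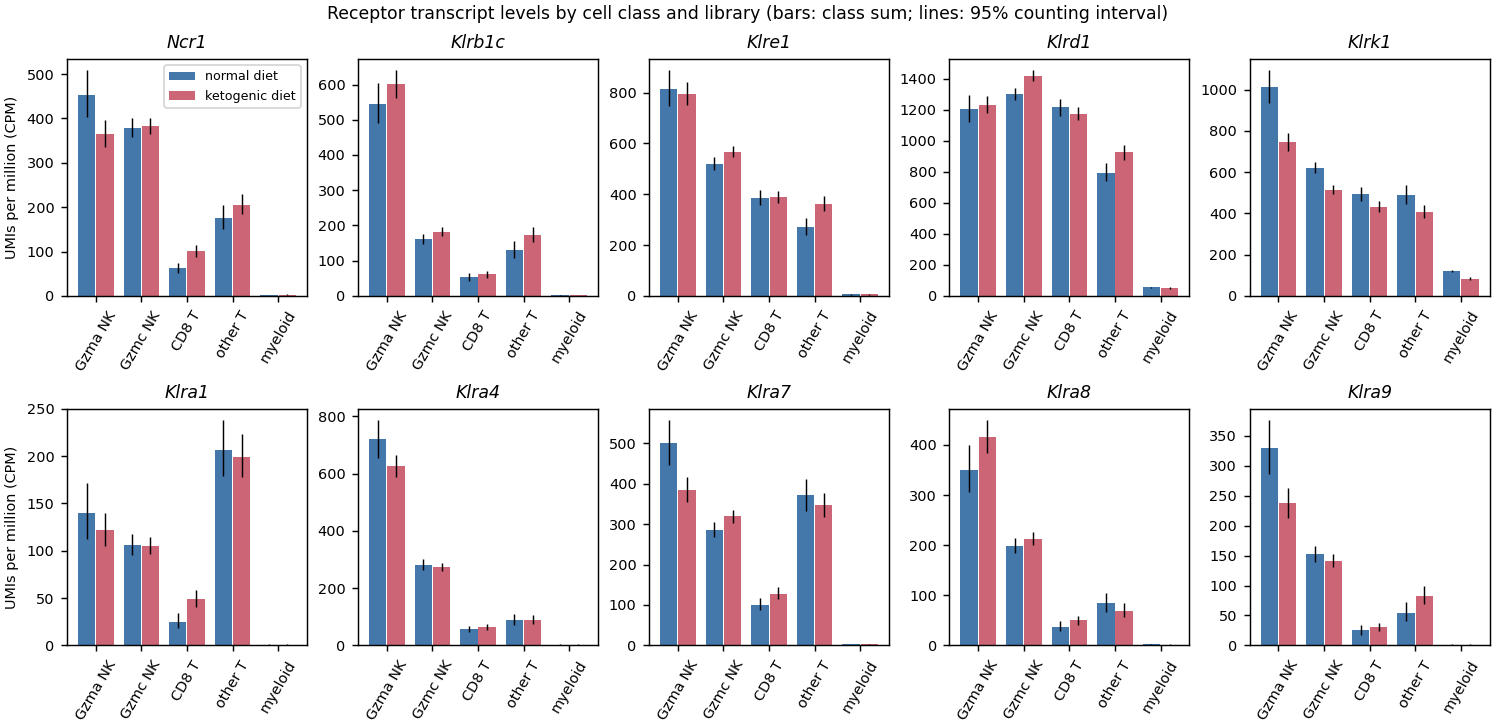
Level of each of the 10 receptor genes in CPM (vertical axes, each starting at 0) in 5 cell classes, with a bar for each library and its 95% counting interval. Klrb1c, Klra4, Klra8 and Klra9 were highest in Gzma-dominant NK barcodes, Klrd1 was about level between NK subsets and CD8 T, and Klra1 was highest in the other T barcodes of both libraries.

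Klrb1c showed the largest difference of the 10. It stood at 546 (491 to 606) and 600.3 (562 to 640) CPM in Gzma-dominant and at 162 (148 to 176) and 183 (171 to 195) CPM in Gzmc-dominant barcodes. The 2 subsets did not overlap, and the ketogenic library was no lower than the normal one in either of them. The log2 difference, Gzmc-dominant minus Gzma-dominant, was −1.63 ± 0.085 (SE, n = 2 libraries, edgeR adjusted p = 5.2e-19).

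Ncr1, in contrast, was carried by both subsets at a like level. It measured 454 (403 to 508) and 365 (335 to 396) CPM in Gzma-dominant and 379 (358 to 400.3) and 383 (366 to 401) CPM in Gzmc-dominant barcodes. The Gzma-dominant value of the normal library was the highest of the 4 and that of the ketogenic library the lowest, so the libraries placed the subsets in opposite orders. The log2 difference was 0.03 ± 0.10 (SE, n = 2 libraries, edgeR adjusted p = 0.86), which leaves the direction undetermined; with DESeq2 it was −0.0097, and without the ketogenic library −0.26. After each barcode was thinned to 1000 UMIs, 35.3% and 28.0% of Gzma-dominant and 33.6% and 31.9% of Gzmc-dominant barcodes had an Ncr1 UMI, against 0.2% and 0.3% of myeloid barcodes.

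Klrk1, the activating receptor NKG2D, measured 1013 (937 to 1094) and 745 (703 to 790) CPM in Gzma-dominant and 622 (596 to 649) and 516 (496 to 536) CPM in Gzmc-dominant barcodes. Both Gzma-dominant values lay above both Gzmc-dominant ones, and in each subset the ketogenic library was the lower. The log2 difference between the subsets was −0.51 ± 0.081 (SE, n = 2 libraries, edgeR adjusted p = 3.3e-06). Klre1, a lectin-like receptor that pairs with the products of Klri1 or Klri2, measured 815 and 795 CPM in Gzma-dominant and 520.4 and 567 CPM in Gzmc-dominant barcodes, a log2 difference of −0.46 ± 0.080 (SE, n = 2 libraries, edgeR adjusted p = 1.8e-05). The calls for Klrk1 and Klre1 were lost without the library block (edgeR adjusted p = 0.057 and 0.069) and without the filter on mixed lineages (0.090 and 0.31).

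Klrd1 went the other way. It measured 1204 (1121 to 1291) and 1233 (1178 to 1290) CPM in Gzma-dominant and 1302 (1264 to 1341) and 1419 (1386 to 1453) CPM in Gzmc-dominant barcodes. The interval of the normal Gzmc-dominant sum reached into that of the Gzma-dominant sums. The log2 difference was 0.26 ± 0.076 (SE, n = 2 libraries, edgeR adjusted p = 0.0077), and it did not pass with DESeq2 (adjusted p = 0.084), without the library block (edgeR adjusted p = 0.34) or with a plain granzyme majority (edgeR adjusted p = 0.096).

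**Figure D2:**
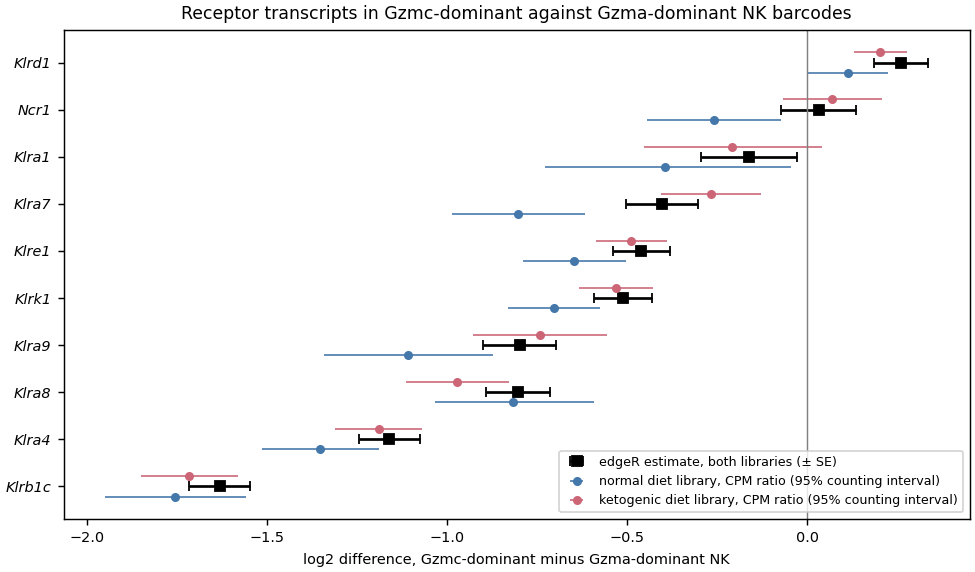
Log2 difference of each receptor between Gzmc-dominant and Gzma-dominant NK barcodes (horizontal axis), with the edgeR estimate over both libraries ± SE (black squares) and the plain CPM ratio in each library with its 95% counting interval (circles). Klrb1c lies lowest at −1.63, Klra4 next at −1.16 and Klrd1 highest at 0.26, and for Ncr1 the circles lie on both sides of 0.

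Per barcode, rather than per UMI, the order of the subsets was mostly reversed, because Gzmc-dominant barcodes were deeper. Klrd1 gave 2.70 and 2.76 UMIs per Gzma-dominant and 9.40 and 9.72 per Gzmc-dominant barcode. Klra4 gave 1.61 and 1.40 against 2.03 and 1.88 UMIs per barcode. Klrb1c alone was no higher per Gzmc-dominant barcode, at 1.22 and 1.35 against 1.17 and 1.25. A lower level per UMI is therefore a smaller share of the captured RNA, and it does not state how many receptor transcripts a cell held.

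The 5 Ly49 genes lie within 343 kb of chromosome 6 on the minus strand (GRCm38, GENCODE vM21): Klra4 at chr6:130043731-130067271, Klra8 at chr6:130115226-130129898, Klra9 at chr6:130178675-130193112, Klra7 at chr6:130218605-130233322 and Klra1 at chr6:130363917-130386874. The other 4 Klr genes lie on the same chromosome, all 9 within 1608 kb, and Ncr1 is on chromosome 7 at chr7:4337724-4345164. All are protein-coding, and Klrb1c overlaps the gene model Gm44511 on its own strand. How reads that match both were counted is not known here.

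RefSeq promoter windows (GRCm38.p6, 250 bases before the annotated start) were matched for 9 of the 10 genes, Klrd1 being the other. The last 120 bases before 1 start of each Ly49 gene are shown because 4 of these 5 genes fell between the NK subsets and Klra1 did not pass the test. Each is written 5′ to 3′ on the minus strand, and capitals mark runs of at least 12 bases that at least 3 of the 5 genes' windows share. The first capitals of Klra4 and Klra9 join a pair of overlapping runs, AAGCAATTTCCTCTTTT, shared with Klra8, and TTTCCTCTTTTTG, shared with Klra7.
Klra4 (chr6:130067272-130067391): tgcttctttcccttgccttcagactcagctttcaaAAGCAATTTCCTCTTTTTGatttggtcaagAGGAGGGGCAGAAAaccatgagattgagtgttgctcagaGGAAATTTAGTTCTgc
Klra8 (chr6:130129899-130130018): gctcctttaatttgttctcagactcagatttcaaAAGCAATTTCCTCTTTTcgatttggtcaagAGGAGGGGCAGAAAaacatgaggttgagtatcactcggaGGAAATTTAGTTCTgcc
Klra9 (chr6:130193113-130193232): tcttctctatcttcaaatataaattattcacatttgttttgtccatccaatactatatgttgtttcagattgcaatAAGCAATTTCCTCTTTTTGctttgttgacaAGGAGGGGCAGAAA
Klra7 (chr6:130233323-130233442): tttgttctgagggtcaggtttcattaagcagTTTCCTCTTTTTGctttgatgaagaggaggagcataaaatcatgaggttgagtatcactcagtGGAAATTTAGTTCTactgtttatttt
Klra1 (chr6:130386875-130386994): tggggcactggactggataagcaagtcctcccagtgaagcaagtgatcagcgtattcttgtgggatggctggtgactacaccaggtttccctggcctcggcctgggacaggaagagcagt
The run AGGAGGGGCAGAAA was in the windows of Klra4, Klra8 and Klra9 and, on either strand, in 6 of 27025 genes' windows (0.0222%). The run GGAAATTTAGTTCT was in those of Klra4, Klra7 and Klra8 and in 3 of 27025 (0.0111%). The window of Klra1 held none of the shared runs. The RUNX core TGTGGT, searched on both strands, was in windows of Klra1, Klrb1c, Klre1, Klrk1 and Ncr1 and in 14.2% of all genes' windows. The T-box half-site GGTGTGA and the ETS core CAGGAAGT were in no receptor's window, and the TCF core CTTTGAT was in that of Klra7 only, against 3.31%, 2.73% and 3.23% of all windows. These matches describe letters in the windows and say nothing of binding.

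Klra4 (Ly49D), an activating receptor, fell most among the Ly49 genes. It measured 719.7 (656 to 788) and 626 (587 to 667) CPM in Gzma-dominant and 282 (264 to 300.4) and 274 (259.9 to 289.6) CPM in Gzmc-dominant barcodes. No interval of one subset met one of the other, and the log2 difference was −1.16 ± 0.084 (SE, n = 2 libraries, edgeR adjusted p = 1.7e-14). Klra8 (Ly49H), the activating receptor for a cytomegalovirus protein, measured 351 and 416 CPM against 199 and 212 CPM, a log2 difference of −0.80 ± 0.089 (SE, n = 2 libraries, edgeR adjusted p = 1.7e-09). Klra9 (Ly49I), an inhibitory receptor, measured 329 and 237 CPM against 153 and 142 CPM, a log2 difference of −0.80 ± 0.10 (SE, n = 2 libraries, edgeR adjusted p = 4.1e-08). Klra4, Klra8 and Klra9, whose windows share the run AGGAGGGGCAGAAA, had the 3 lowest log2 differences of the 5 Ly49 genes, which is a description made after the values were seen. Each of the shared runs that Klra7 also holds was missing from the window of Klra8 or Klra9. The window of Klra9 stops at the end of the run named above, so bases past its annotated start were not searched. The window of Klra8 misses the other run by a mismatch near the end of that run. Whether these runs follow the order of the differences can therefore not be told from the windows. A link between any run and the levels was not tested.

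Klra7 (Ly49G), an inhibitory receptor, measured 499.8 (447 to 557) and 384 (354 to 416) CPM in Gzma-dominant and 286 (269 to 305) and 319 (303 to 335) CPM in Gzmc-dominant barcodes. The subsets lay further apart in the normal than in the ketogenic library, with CPM ratios, Gzmc-dominant over Gzma-dominant, of 0.57 (0.50 to 0.65) and 0.83 (0.76 to 0.91). The log2 difference was −0.40 ± 0.099 (SE, n = 2 libraries, edgeR adjusted p = 0.0016), and the call was lost with DESeq2 (adjusted p = 0.054), without the library block (edgeR adjusted p = 0.13) and without the filter on mixed lineages (edgeR adjusted p = 0.49). Klra1 (Ly49A), an inhibitory receptor for H-2D molecules, measured 139.9 (113 to 172) and 122 (105 to 140.4) CPM against 107 (95.8 to 118) and 105 (96.5 to 115) CPM, a log2 difference of −0.16 ± 0.13 (SE, n = 2 libraries, edgeR adjusted p = 0.40). The intervals of Klra1 overlapped between the subsets in both libraries, and without the filter on mixed lineages its difference was 0.11. The reads come from the 3′ ends of transcripts, where the Ly49 genes resemble each other. With their last 400 bases aligned, Klra9 and Klra3 were 98.25% identical. Klra8 was 97.2% identical to Klra9 and 96.5% to Klra3 over 316 aligned bases, and Klra4 90.1% to Klra7 over 292. The last 400 bases of Klra9 share an identical run of 92 bases with the whole Klra3 transcript. Those of Klra8 share a run of 73 with the Klra9 and with the Klra3 transcript, and those of Klra4 a run of 49 with the Klra7 transcript. How the counting treated reads that match more than 1 of these genes is not known here, so the levels of Klra8, Klra9 and Klra3 in particular are uncertain.

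After thinning to 1000 UMIs, 78.2% (72.7 to 83.0) and 69.6% (65.9 to 73.2) of Gzma-dominant and 52.0% (47.3 to 56.6) and 52.5% (48.7 to 56.3) of Gzmc-dominant barcodes had a UMI of at least 1 of the 5 Ly49 genes. Myeloid barcodes, which should lack them, gave 1.0% and 1.1%. Barcodes left out as too shallow numbered 24 and 60 Gzma-dominant and 11 and 10 Gzmc-dominant ones. For single genes the thinned share in Gzma-dominant barcodes ran from 9.8% and 8.3% for Klra1 to 40.6% and 35.9% for Klra4, and in Gzmc-dominant barcodes from 9.4% and 7.4% for Klra1 to 21.7% (Klra7, normal diet) and 20.6% (Klra4, ketogenic diet). Unthinned, Klra4 was seen in 48.3% and 43.7% of Gzma-dominant and in 37.7% and 40.1% of Gzmc-dominant barcodes.

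How often the Ly49 genes met in 1 barcode was set beside the product of their single shares. Barcodes with 0 of the 5 made up 48.0% and 47.5% of Gzmc-dominant barcodes where the products give 43.6% and 44.1%, and 21.8% and 30.4% of Gzma-dominant ones where the products give 21.9% and 26.6%. In other T barcodes they made up 67.0% and 64.2% where the products give 57.9% and 60.2%. The observed share was thus above the product in these classes except in Gzma-dominant barcodes of the normal library. Gzmc-dominant barcodes with 3 or more genes made up 3.9% in both libraries where the products give 2.6% and 2.5%. Of the 10 pairs of Ly49 genes 6 and 7 were above their product in Gzmc-dominant and 7 and 7 in Gzma-dominant barcodes, and the others were below it. The product lay below the interval for 3 pairs (Klra4 with Klra8, Klra4 with Klra9 and Klra7 with Klra8) and 1 pair (Klra4 with Klra8) in Gzmc-dominant barcodes and for 0 and 1 (Klra4 with Klra8) in Gzma-dominant ones. It lay above the interval for Klra4 with Klra9 in Gzma-dominant barcodes of the normal library. These pairs, and the pairs that follow, are named after their values were seen. Klra4 and Klra8, both activating, were found together in 4.82% (3.05 to 7.21) and 6.15% (4.49 to 8.20) of Gzmc-dominant barcodes, where the products give 2.85% and 3.54%. In Gzma-dominant barcodes they were found together in 12.03% (8.38 to 16.6) and 12.7% (10.2 to 15.6), where the products give 10.1% and 9.54%. For this pair the products in Gzmc-dominant barcodes lay below the counting intervals in both libraries. In Gzma-dominant barcodes this held in the ketogenic library, while in the normal library the product lay inside the interval. Klra7 and Klra9, both inhibitory, were found together in 4.14% (2.08 to 7.28) and 3.50% (2.20 to 5.25) of Gzma-dominant barcodes, where the products give 6.67% and 4.46%, both inside the intervals. The pairs outside their intervals changed with thinning to 2000 UMIs, which left 132 and 295 Gzma-dominant barcodes. There the product lay inside the interval for all 10 pairs in Gzma-dominant barcodes of both libraries. In Gzmc-dominant barcodes it lay below the interval for 2 and 5 pairs, among them Klra4 with Klra8 in both libraries. Klra7 with Klra8 in the normal library was no longer among them. Barcodes are not replicates, and no test was made of these shares.

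**Figure D3:**
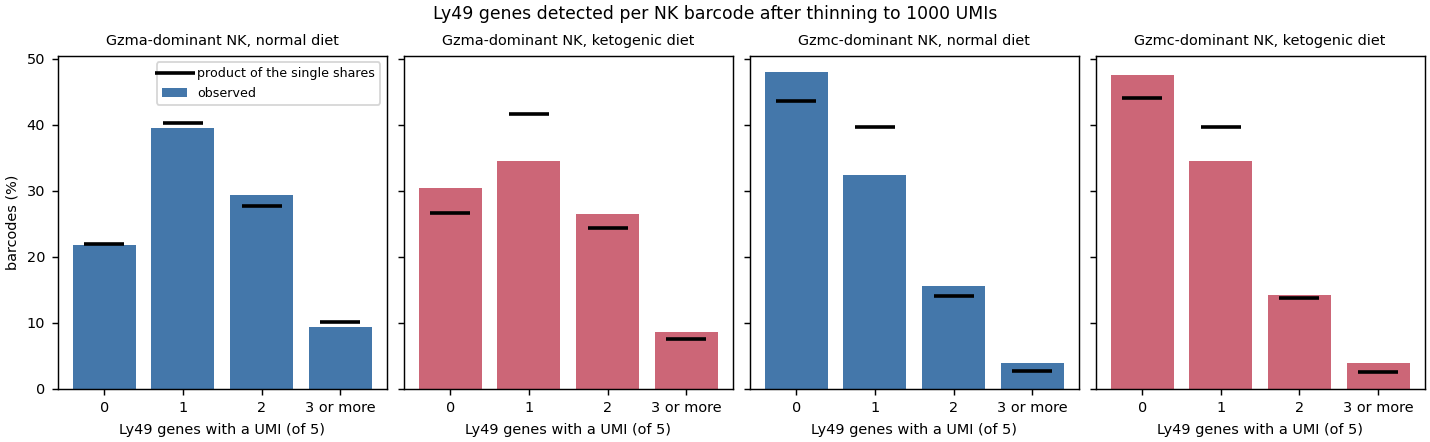
Share of NK barcodes (vertical axis, percent) with a UMI of 0, 1, 2 or at least 3 of the 5 Ly49 genes after thinning to 1000 UMIs, for each subset and library. Bars are the observed shares and black marks the shares given by multiplying the single-gene shares, and in Gzmc-dominant barcodes the bars at 0 (48.0% and 47.5%) stand above the marks (43.6% and 44.1%).

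Other genes of the NK receptor system moved between the subsets too. Of 28 other NK receptor genes 26 were in the files and 21 could be tested, of which 7 rose and 6 fell in Gzmc-dominant barcodes, with a median log2 difference of 0.17, beside the 15% and 14.2% of all genes called higher and lower. Klra5 rose (2.64 ± 0.29) and Slamf6 fell (−3.06 ± 0.56; log2 ± SE, edgeR adjusted p = 1.1e-09 and 3.6e-05). Of 19 adaptor and proximal signaling genes 2 rose and 8 fell, with a median of −0.31. Cd247, the zeta chain that carries activating signals, fell by 1.58 on the log2 scale, Syk, a kinase that acts after Tyrobp, by 1.76 and Fyn, a Src-family kinase, by 1.12 (edgeR adjusted p = 8.4e-10, 3.2e-06 and 3.1e-10).

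Of 17 genes of tissue residency and maturation 16 were tested, of which 3 rose and 9 fell, with a median of −0.62, beside the same shares of all genes. The 3 that rose were Itga1 (1.86), Tnfsf10 (1.13) and Cxcr6 (2.28), all known from tissue-resident lymphocytes. Itgae, Cd69 and Zfp683, also on this list, were not among those called higher. S1pr5, a receptor for leaving tissue, fell by 4.39, Klf2, a factor that keeps lymphocytes circulating, by 3.31, Itgam and Itga2, integrins of mature NK cells, by 2.76 and 2.65, and Cd27 by 1.21 on the log2 scale. The largest edgeR adjusted p among the residency and maturation genes given with a difference was 3.3e-05, for Cxcr6. Of 19 genes for receptor ligands 10 were tested, of which none rose and 5 fell; Clec2d, the ligand of an inhibitory Klrb1 receptor, fell by 1.35 on the log2 scale (edgeR adjusted p = 2.0e-13).

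All 10 receptors were called higher in NK than in CD8 T barcodes, where 8.95% of 9225 genes were called higher and 20.4% were called in either direction. The contrast set the mean of both NK subsets against CD8 T in the same edgeR fit. The log2 difference had a median of 2.02 over the 10 receptors and of −0.0046 over all genes tested. For 7 receptors the difference was 1.66 or more, and for the other 3, Klre1, Klrk1 and Klrd1, it was 0.86 or less.

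Klra4 measured 56.6 and 64.3 CPM in CD8 T barcodes, a log2 difference, NK minus CD8 T, of 2.90 ± 0.098 (SE, n = 2 libraries, edgeR adjusted p = 8.3e-26). Klra9 stood at 25.3 and 30.3 CPM (2.90), Klra8 at 37.3 and 49.97 CPM (2.76), Klrb1c at 53.6 and 61.0 CPM (2.54) and Ncr1 at 62.0 and 100.3 CPM (2.31). Klra7 stood at 101 and 128 CPM (1.72) and Klra1 at 25.3 and 49.1 CPM (1.66). The largest edgeR adjusted p of these 7 genes was 9.2e-13, and for each of them every NK value lay above both CD8 T values. These 7 were grouped by the size of their difference, and the share of all genes separated in this way was not counted.

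Klrd1, Klrk1 and Klre1 differed less. Klrd1 stood at 1214 (1162 to 1269) and 1173 (1131 to 1217) CPM in CD8 T barcodes, inside the range of the Gzma-dominant intervals, and its log2 difference of 0.19 ± 0.066 had an edgeR adjusted p of 0.030. That call was lost under 7 of the 12 other settings with a test, for example with DESeq2 (adjusted p = 0.20). Klrk1 stood at 495 and 431 CPM (log2 difference 0.68 ± 0.072) and Klre1 at 386 and 388 CPM (0.86 ± 0.073), with edgeR adjusted p = 4.9e-10 and 1.4e-12. Klrc1, the inhibitory partner NKG2A of Klrd1, stood at 296 and 224 CPM in CD8 T against 138 and 135 CPM in all NK barcodes, and is named after its values were seen.

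Among the other genes of the system, 11 of the 21 NK receptor genes tested were higher and 5 lower in NK than in CD8 T barcodes, with a median log2 difference of 0.61, beside 8.95% and 11.4% of all genes called higher and lower. Klrb1a, Klrb1b and Klrb1f, relatives of Klrb1c, were higher by 2.41, 2.36 and 2.47, Klra3 by 2.39 and Klri2, a partner of Klre1, by 1.69. Of the 19 adaptor and signaling genes 10 were higher and 6 lower (median 0.35): Tyrobp was higher by 2.52, Fcer1g by 1.98, Sh2d1b1, an adaptor of the SLAM receptors, by 2.12 and Pik3r1 by 1.07, whereas Lat, a scaffold of the T cell receptor, differed by −2.53. Of the 16 residency and maturation genes 6 were higher and 5 lower (median 0.18), with Eomes, a factor of NK development, at 1.65, and with Cxcr6 at −5.69, Il7r at −4.62 and Cx3cr1 at −3.47. Of the 10 ligand genes 2 were higher and 1 lower (median −0.07). The largest edgeR adjusted p of the named genes was 5.1e-12, for Cx3cr1.

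The 7 receptors with the larger differences were found, within CD8 T, almost entirely in barcodes that also had UMIs of Tyrobp and Fcer1g, adaptors that NK and myeloid cells use. This split was chosen after the values were seen. CD8 T barcodes with at least 2 UMIs of the 2 adaptors numbered 113 of 302 and 168 of 373, and they were deeper, with medians of 6640 and 8415 UMIs against 3742 and 3716. In these barcodes Ncr1 measured 115 (93.5 to 139.5) and 157 (138 to 178) CPM. In the others Ncr1 had 2 UMIs in the normal library and 0 in the ketogenic library, where a floor of 3 counts stands at 3.41 CPM. Klra4 had 107 and 100.5 CPM with the adaptors and 0 UMIs in both libraries without them, where a floor of 3 counts stands at 3.84 and 3.41 CPM.

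The remaining 5 split alike. Klrb1c went from 100.04 and 93.4 CPM to 1 and 3 UMIs, Klra8 from 68.2 and 78.1 CPM to 2 and 0 UMIs, Klra9 from 47.7 and 44.2 CPM to 0 and 5 UMIs and Klra7 from 189 and 191 CPM to 2.56 and 15.9 CPM. Klra1 went from 42.1 and 71.0 CPM to 6.39 (2.08 to 14.9) and 10.2 (4.68 to 19.4) CPM. Klrd1, in contrast, was no lower without the adaptors, at 1323 and 1263 CPM against 1118 and 1123 CPM with them, and Klrk1 stood at 497 and 415 CPM against 492 and 440.3 CPM. Cd8a was lower in barcodes with the adaptors, at 610.5 and 571 CPM against 1138 and 1018 CPM, and so was Cd5, at 48.9 and 60.2 CPM against 104 and 92.1 CPM. The filter on mixed lineages does not remove a barcode that holds a T and an NK cell, and the part of such barcodes in these values was not tested. Against CD8 T barcodes with under 2 adaptor UMIs, NK barcodes differed by 8.31 (log2) in Ncr1, 3.83 in Klra1, 0.98 in Klre1, 0.67 in Klrk1 and 0.04 in Klrd1, for which the edgeR adjusted p was 0.78; the fitted values for genes near 0 UMIs depend on the prior count.

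**Figure D4:**
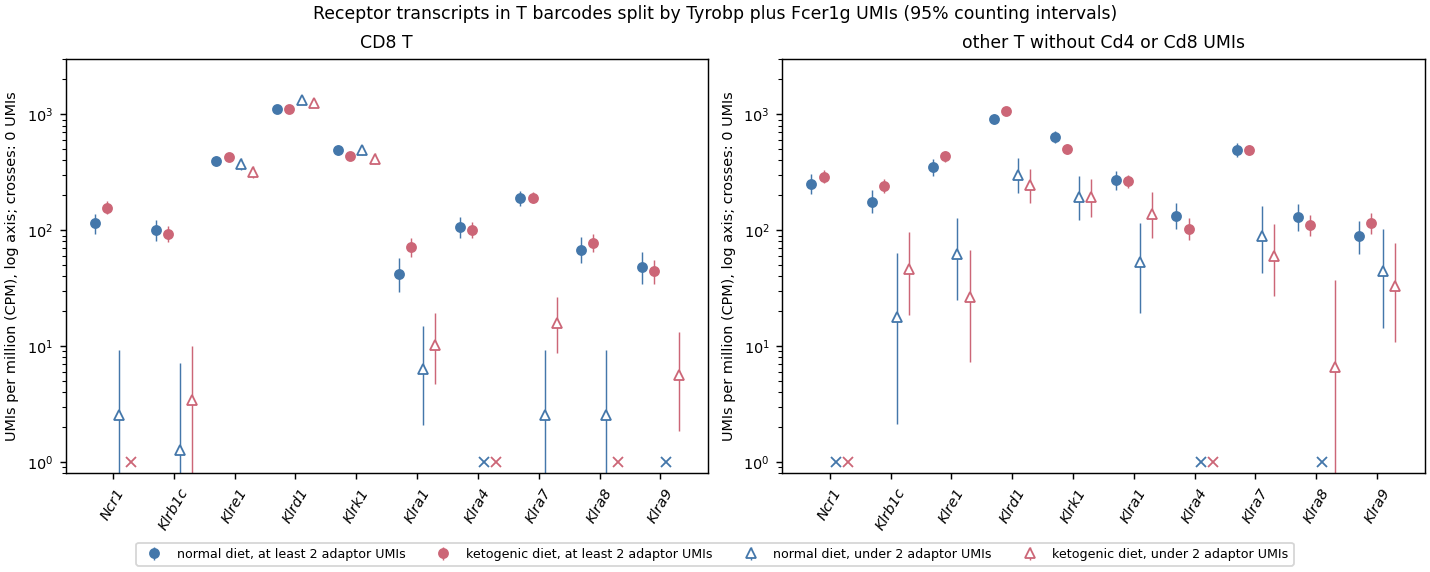
Receptor levels in CPM (vertical log axis; crosses mark 0 UMIs) in CD8 T barcodes (left) and in other T barcodes with no Cd4 or Cd8 UMI (right), split by whether they held at least 2 UMIs of Tyrobp and Fcer1g. In CD8 T, Klrd1, Klrk1 and Klre1 stay near their levels without the adaptors, whereas Ncr1, Klrb1c and the Klra genes drop to at most 15.9 CPM; some lower interval ends lie below the axis.

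The other T barcodes, which had T cell receptor UMIs but met neither the CD8 nor the CD4 rule, carried the Ly49 genes in other proportions. Klra1 reached its highest level there, 207 (179 to 238) and 199 (178 to 223) CPM, above the Gzma-dominant NK intervals in both libraries. In other NK barcodes Klra1 stood at 110.2 (89.0 to 135) and 173 (150.2 to 199) CPM, and the ketogenic interval there overlaps that of other T barcodes. Klra7 stood at 371 and 347 CPM, above the Gzmc-dominant level in both libraries, although the intervals overlap in the ketogenic one, while Klra4 stood at 89.4 and 90.5 CPM and Klra8 at 84.0 and 69.5 CPM, below every NK value. These levels are a description without a test, because the class was not part of the fit. Klra1 and Klra7 were found in the same barcode in 6.90% (3.82 to 11.3) and 5.87% (3.62 to 8.91) of other T barcodes thinned to 1000 UMIs, where the products give 3.28% and 2.71%.

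Other T barcodes with no UMI of Cd4 or Cd8 genes and fewer than 2 of Trdc, a gamma-delta receptor gene, were split by the adaptors in the same way, again after the values were seen. Those with at least 2 adaptor UMIs numbered 80 and 161 and held Klra7 at 497 (433 to 567) and 491 (444 to 541) CPM and Klra1 at 269.8 (224 to 323) and 264 (230.3 to 302) CPM. The 58 and 78 without them held Klra7 at 88.6 and 59.8 CPM and Klra1 at 53.2 (19.5 to 116) and 139 (86.3 to 213) CPM, and had 0 UMIs of Ncr1 and Klra4 in both libraries. The 33 and 76 barcodes with at least 2 Trdc UMIs held Klra1 at 252 and 109.8 CPM and Klra7 at 359 and 223 CPM. CD4 T barcodes were too few for the fit, and their highest receptor level was Klrd1 at 253 and 353 CPM.

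In myeloid barcodes 8 receptors stood at or below 6.48 CPM in both libraries, with thinned shares of at most 1.02%. Klrd1 measured 54.2 and 48.7 CPM and Klrk1 120.5 (114 to 127) and 82.3 (75.7 to 89.2) CPM, both above those 8. Free RNA had both genes in quantity, at 599 and 877 CPM for Klrd1 and 249.98 and 295.5 CPM for Klrk1 in barcodes with at most 100 UMIs. Klrd1 was the higher of the 2 genes in free RNA, and Klrk1 the higher in myeloid barcodes. The source of their UMIs in myeloid barcodes was not tested. In C1q-positive myeloid barcodes Klrk1 measured 98.9 and 64.8 CPM and Klrd1 26.3 and 13.8 CPM.

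Between the diets, with 1 library each, no receptor differed by 1.5-fold in the Gzma-dominant or Gzmc-dominant NK subset, where 12.8% of 4643 genes with at least 50 UMIs in Gzma-dominant and 8.01% of 8018 in Gzmc-dominant barcodes did so in either direction. In other NK barcodes 1 of 10 receptors did, beside 10.7% of 4357 genes: Klra1, which measured 110.2 CPM (89.0 to 135) under the normal and 173 CPM (150.2 to 199) under the ketogenic diet. Its ratio was 1.57 (1.23 to 2.03). No test can be made, since variation between mice and libraries cannot be measured. The log2 ratio of the diets (ketogenic over normal) had a median over the 10 receptors of −0.20 in Gzma-dominant and 0.05 in Gzmc-dominant NK barcodes, beside −0.08 over all genes measured in each. Klrk1 was lower in the ketogenic library in 6 of 7 classes, with an interval that held 1 in other NK barcodes (0.90, 0.80 to 1.003), and stood at 137 and 194 CPM, with overlapping intervals, in the few CD4 T barcodes. These classes share the same 2 libraries, and the share of all genes lower in as many classes was not counted. The median gene was lower too, by log2 ratios from −0.03 in other NK to −0.16 in myeloid barcodes. The Klrk1 ratio, ketogenic over normal CPM, was 0.74 (0.67 to 0.81) in Gzma-dominant NK, 0.83 (0.78 to 0.88) in Gzmc-dominant NK, 0.87 (0.80 to 0.96) in CD8 T, 0.83 (0.74 to 0.94) in other T and 0.68 (0.62 to 0.75) in myeloid barcodes. Without the filter on mixed lineages its log2 ratio was −0.05, −0.17, −0.03 and −0.02 in the first 4 of the classes just listed, against −0.44, −0.27, −0.20 and −0.27 with it. Hcst (DAP10), the adaptor through which Klrk1 signals, went the other way, with ratios of 1.27 (1.10 to 1.47) and 1.30 (1.18 to 1.42) in the NK subsets, and is named after its values were seen.

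The remaining receptors differed by subset. In Gzma-dominant barcodes Klra9 had a ratio of 0.72 (0.61 to 0.86), Klra7 of 0.77 (0.67 to 0.88), Ncr1 of 0.80 (0.70 to 0.93), Klra4 of 0.87 (0.78 to 0.97) and Klra8 of 1.19 (1.02 to 1.39). Without the filter on mixed lineages the log2 ratios of Ncr1, Klra4, Klra7 and Klra9 turned to 0.15, 0.37, 0.14 and 0.09. The intervals for Klrb1c, Klre1, Klrd1 and Klra1 held 1. In Gzmc-dominant barcodes Klrb1c had a ratio of 1.13 (1.01 to 1.26), Klra7 of 1.11 (1.03 to 1.21), Klrd1 of 1.09 (1.05 to 1.13) and Klre1 of 1.09 (1.03 to 1.16), and the intervals of Ncr1, Klra1, Klra4, Klra8 and Klra9 held 1. Over all NK barcodes Klrb1c had a ratio of 1.21 (1.13 to 1.30), above that in either subset. Gzma-dominant barcodes, where Klrb1c is highest, made up 31.3% of NK barcodes under the normal diet and 41.5% under the ketogenic diet. In the UMI sums behind this ratio they gave 650304 of 4873754 and 1544212 of 7579745 UMIs. With both subsets weighted equally the log2 ratio of Klrb1c was 0.15 instead of 0.27. The part of the subset shares in its ratio was not tested.

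**Figure D5:**
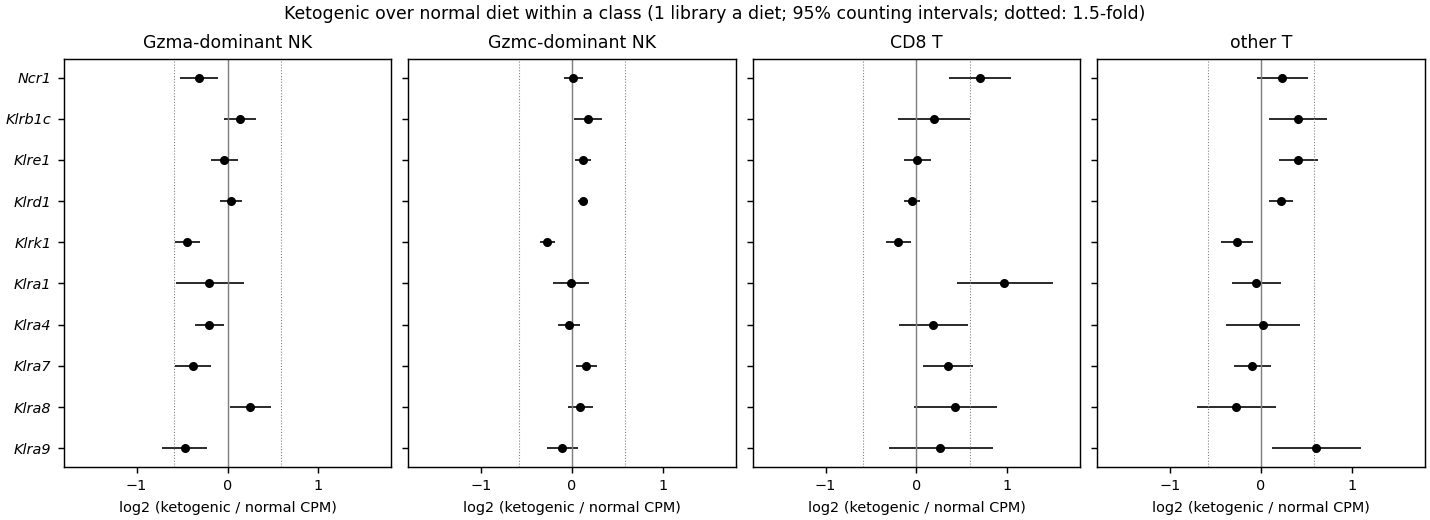
Log2 ratio of ketogenic over normal CPM for each receptor (horizontal axis) in 4 classes, with 95% counting intervals and dotted lines at 1.5-fold; each point rests on 1 library a diet. Klrk1 lies below 0 in all 4 classes, and Klra1 and Ncr1 in CD8 T lie beyond the upper dotted line.

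In CD8 T barcodes Klra1 stood past 1.5-fold, at 25.3 and 49.1 CPM (42 and 120 UMIs), a ratio of 1.94 (1.36 to 2.83), and so did Ncr1 at 62.0 and 100.3 CPM (103 and 245 UMIs), a ratio of 1.62 (1.28 to 2.06). These 2 of 10 receptors stand beside 11.1% of 6708 genes past 1.5-fold in either direction. Tyrobp moved with them, at 386 and 593 CPM and a ratio of 1.54 (1.40 to 1.69), and all 245 Ncr1 UMIs of the ketogenic library were in barcodes with at least 2 adaptor UMIs. Among CD8 T barcodes with the adaptors Klra1 measured 42.1 (29.6 to 58.0) and 71.0 (58.4 to 85.5) CPM. In other T barcodes Klra9 was past 1.5-fold, at 54.9 and 83.3 CPM and a ratio of 1.52 (1.09 to 2.14), beside 11.6% of 5278 genes. Its 51 and 127 UMIs and the likeness of its 3′ end to that of Klra3 limit this value.

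The 5 genes outside these lists whose level followed the summed receptors most closely over 14 class sums (7 classes in 2 libraries) were Ctla2b (Pearson r = 0.98), Dapk2 (0.98), Grcc10 (0.98), Gem (0.97) and Dennd4a (0.97), on log2(CPM + 10) values. Ctla2b measured 301 and 319.9 CPM in Gzma-dominant NK, 269.7 and 266 CPM in Gzmc-dominant NK, 124 and 139 CPM in CD8 T and 32.7 and 19.9 CPM in myeloid barcodes. The sums share libraries, so the correlation is a description.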

How the data were processed

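Per the file headers the authors deposited raw counts, 1 UMI count for each gene in each barcode, from Cell Ranger version 4, without a filter for cells. Per the labels' notes on processing, the tools were Cell Ranger 6.0.0 and Seurat 3.2.0, with GRCm38 (mm10) as build. The libraries hold 37575996 and 42710007 UMIs. Barcodes over 10% mitochondrial UMIs (63 and 71) were removed, and so were lymphocyte barcodes at 1500 CPM or more of myeloid or MHC class II, 400 of B cell or 800 of stromal genes; no doublet caller was run. Class sums were tested with edgeR 4.0.16 (TMM, filterByExpr, class and library terms, call at adjusted p of 0.05; DESeq2 1.42.0 as an alternative) in R 4.3.3, and the code was checked on simulated data. With 2 residual degrees of freedom the spread comes mostly from all genes (prior 37.4). The library term takes up differences in level between the 2 libraries, which differ in diet. The p-values therefore measure only how class differences vary between these 2 libraries, and not the spread between mice or diets. CD4 T, with under 20 barcodes in 1 library, was left out of the fit, so CD8 T against CD4 T was not tested. Free RNA from barcodes with at most 100 UMIs was put at 1.60% to 3.19% of class sums. Intervals are exact (Poisson, Clopper-Pearson or conditional binomial, 95%) and cover counting error only. All 10 receptors are named; list genes are named where called at a log2 change of at least 1, at most 15 a contrast by smallest p. One gene that this rule names is not reported here. The receptors, lists and classes were chosen with earlier results of these data known.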

Additional observations from a re-analysis of the deposited data

Results flagged for a closer look

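For 3 receptors the ratio of ketogenic over normal CPM lay on opposite sides of 1, counting intervals included, in different classes. The rule was applied to the receptors only, so the share of all genes that would meet it is not known. The differences between classes were not tested, each value rests on 1 library a diet, and the classes share these libraries. Klra7 had a ratio of 0.77 in Gzma-dominant NK, 0.87 in other NK, 1.11 in Gzmc-dominant NK and 1.27 in CD8 T barcodes. Ncr1 had a ratio of 0.80 in Gzma-dominant NK and 1.62 in CD8 T barcodes. Klra9 had a ratio of 0.72 in Gzma-dominant NK and 1.52 in other T barcodes. Without the filter on mixed lineages the log2 ratios of Klra7, Ncr1 and Klra9 in Gzma-dominant NK were 0.14, 0.15 and 0.089, so that their values there no longer lay below 1.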

How the results depend on the processing

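Genes called between Gzmc-dominant and Gzma-dominant NK barcodes numbered 2691, against 1035 with DESeq2, 1381 without the library block and 1270 in barcodes with at least 2000 UMIs. Between NK and CD8 T they numbered 1880, against 747 with DESeq2 and 1014 without the library block. Genes past 1.5-fold between diets numbered 596, 642, 465, 747 and 612 in Gzma-dominant NK, Gzmc-dominant NK, other NK, CD8 T and other T, against 1474, 1275, 1273, 1492 and 1491 with a minimum of 20 UMIs. Without the filter on mixed lineages they numbered 1409 in Gzma-dominant NK and 1192 in other T, and in Gzma-dominant NK the log2 diet ratios of Ncr1 (0.15), Klra4 (0.37), Klra7 (0.14) and Klra9 (0.089) changed sign. The causes were not tested. Thinned to 2000 UMIs, barcodes with any Ly49 gene were 90.2% and 81.4% (Gzma-dominant) and 64.8% and 65.5% (Gzmc-dominant). Under other settings 211 receptor tests kept their direction and side of the threshold and 17 no longer passed: Klre1, Klrk1, Klra7 and Klrd1 between subsets, and Klrd1 between NK and CD8 T, with edgeR adjusted p up to 0.78 against CD8 T barcodes with under 2 adaptor UMIs, an alternative chosen after seeing the data. The uncalled subset differences of Ncr1 (−0.0097 with DESeq2) and Klra1 (0.11 without the filter on mixed lineages) changed sign. With 1 library left out, which leaves a value and no test, 39 values kept their direction, and Ncr1 between subsets (−0.26 without the ketogenic and 0.070 without the normal library) did not in both. No paired analysis was possible because each diet is 1 library; the library is the block of the class tests. CD8 T against CD4 T was not run. Klra1 and Klra9 rest on 42 UMIs each in CD8 T barcodes of the normal library.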
